A study of Mus musculus with 7 samples.

Results

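In the heart, 10 genes with products in many kinds of white blood cell were followed as a measure of total leukocyte RNA. The genes were Ptprc, Coro1a, Arhgap30, Laptm5, Cd53, Cd52, Cd37, Cd48, Itgal and Arhgdib. They are 10 of the 20343 genes with a complete row in the deposited table, taken by exact match of the gene symbol, and all 10 passed the filter on low counts that left 7667 genes. The genes were chosen by measured values: the list was proposed with their levels in transferred and control hearts already known. Their levels are therefore given as a description. The fit across all genes also covers them, and its calls are printed below without being read as evidence. Messenger RNA had been sequenced from the apical myocardium of mice of the strain NSG-DRB1*0101 (NSG-DR1), an immunodeficient strain carrying a human HLA-DR allele. Control hearts came from 4 mice without any treatment. Transferred hearts came from 3 mice of the same strain that had been given human CD4+ T cells and were sampled 6 weeks later. The labels used here give no age or sex of the mice and do not say whether the human cells came from 1 donor or several. NSG mice lack mature T, B and natural killer cells of their own but keep myeloid cells, so a mouse leukocyte gene in these hearts can be read only against that background.

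The genes cover several layers of leukocyte biology. Ptprc encodes CD45, the receptor tyrosine phosphatase that sets the threshold of antigen receptor and Src-family kinase signalling and is the usual flow-cytometry mark of any leukocyte. Others encode surface adhesion and tetraspanin proteins, regulators of the actin cytoskeleton and of small GTPases, and a lysosomal membrane protein. In normal heart such transcripts come mostly from resident macrophages, with smaller numbers of other leukocytes.

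In bulk tissue, more leukocytes and more RNA per leukocyte cannot be told apart. Levels are in CPM, counts relative to the column total after TMM scaling (trimmed mean of M values). The totals refer to the analysed part of the genome, chromosomes 1 to 7 and the start of chromosome 8. Column totals over that part ran from 16402194 to 25190580, and 3 counts corresponded to between 0.115 and 0.189 CPM. The 12 cardiomyocyte markers summed to between 137248 and 170663 CPM in each of the 7 hearts, more than any other list examined. The labels name no batch, but control heart 1 and transferred heart 1 have animal identifiers with a letter prefix and the other 5 hearts have numbers alone. The source label of transferred heart 2 also carries a letter code that differs from the code shared by transferred hearts 1 and 3, and the labels explain neither.

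All 10 genes had a higher mean in transferred than in control hearts, and in 8 of them every transferred heart lay above every control heart. Such separation was seen in 5.99% of all tested genes, and separation in the lower direction, seen in 0 of the 10, in 5.22%. A log2 fold change of at least 1 was seen in 4 of the 10 (Ptprc, Coro1a, Cd52 and Itgal) and in 2.28% of all tested genes. Nothing is read from these counts. Of the 30 values in transferred hearts, 28 lay above the highest control value of the same gene. The exceptions were Laptm5 and Arhgdib in transferred heart 3. The matching share over all tested genes is not given here, so nothing is read from this count either. The median log2 fold change was 0.93 over the 10 genes and -0.002 over all 7667 tested genes.

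**Figure D1:**
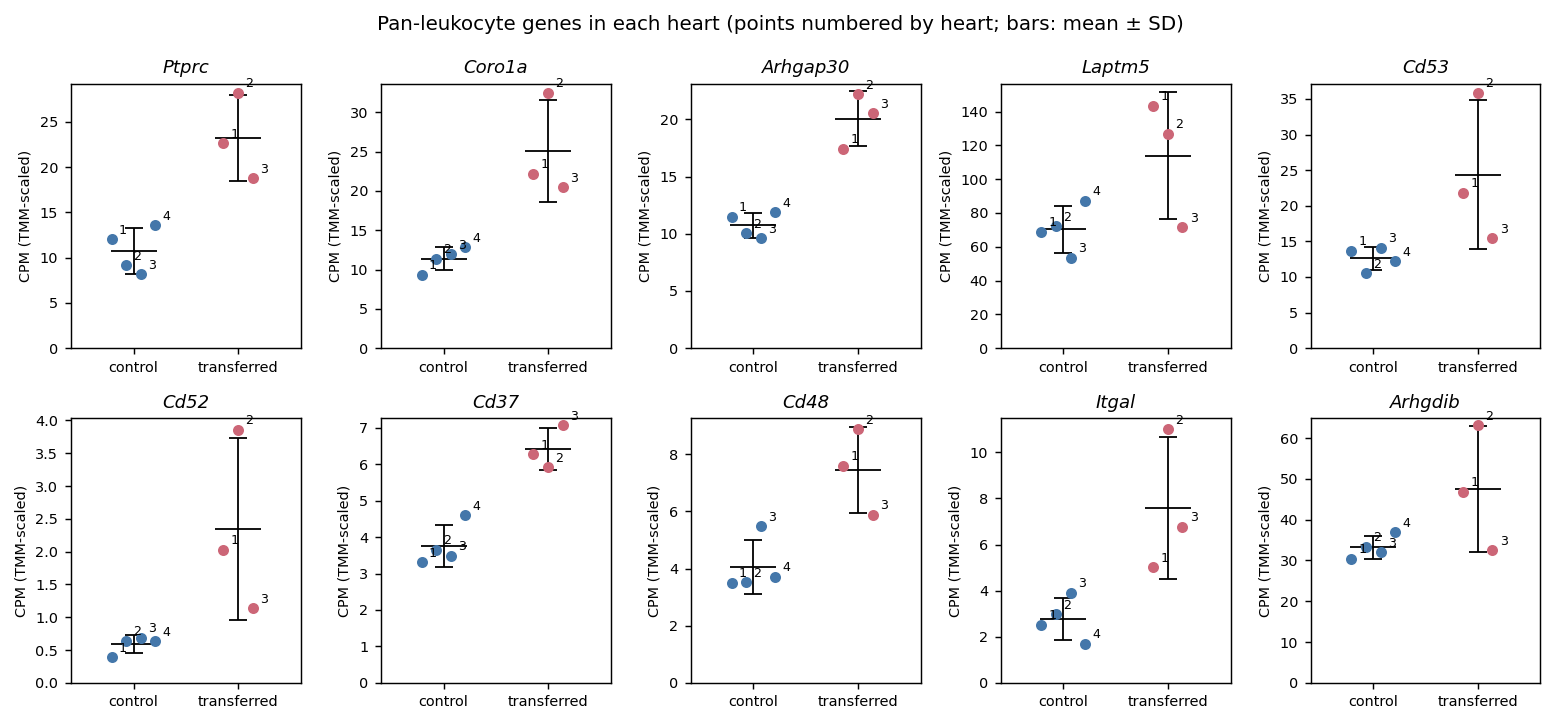
TMM-scaled CPM of each pan-leukocyte gene in the 4 control hearts (blue) and the 3 transferred hearts (red), numbered by heart, with mean and SD as bars and a separate linear axis from 0 for each gene. Transferred heart 2 was the highest of all 7 hearts in 8 of the 10 genes, and only Laptm5 and Arhgdib show overlapping groups.

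Among the surface proteins, Ptprc (chromosome 1, 138062859 to 138175756, minus strand, GRCm38) stood at 12.1, 9.17, 8.18 and 13.6 CPM in control hearts 1 to 4. It stood at 22.6, 28.2 and 18.8 CPM in transferred hearts 1 to 3. The lowest transferred heart was 1.38 times the highest control heart. The group means were 10.7 ± 2.502 CPM (SD, n = 4) and 23.2 ± 4.75 CPM (SD, n = 3). The fitted log2 fold change was 1.12 (standard error 0.20).

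Cd48 (chromosome 1, 171681245 to 171705258) encodes a GPI-anchored protein of the SLAM family and the ligand of the receptor 2B4. Its level was 3.50, 3.53, 5.49 and 3.72 CPM in control hearts and 7.60, 8.89 and 5.88 CPM in transferred hearts. The groups did not overlap, but control heart 3 and transferred heart 3 came within 1.07 times of each other. The exact 95% Poisson interval of control heart 3, 4.63 to 6.47 CPM, included the value of transferred heart 3. The log2 fold change was 0.87 (standard error 0.23.)

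Itgal (chromosome 7, 127296139 to 127335137) encodes the alpha chain of LFA-1, the integrin with which leukocytes bind ICAM proteins on endothelium. It had 2.53, 2.97, 3.92 and 1.70 CPM in control hearts and 5.01, 11.01 and 6.77 CPM in transferred hearts. All transferred values were higher, and transferred heart 2 was 3.96 times the control mean. The log2 fold change was 1.43 (standard error 0.32), and the control hearts varied more for Itgal than for any other of the 10 genes, with a coefficient of variation of 33.2%.

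Cd52 (chromosome 4, 134093538 to 134095073) encodes a very short GPI-anchored glycopeptide and had the largest fold change of the 10. It rested on few counts, with 8, 15, 18 and 10 counts in control hearts and 40, 82 and 23 in transferred hearts. In CPM these were 0.389, 0.646, 0.691 and 0.631 against 2.03, 3.86 and 1.14. The transferred hearts stood 1.93 to 6.55 times above the control mean. The log2 fold change was 1.98 (standard error 0.44.) Without transferred heart 2 the ratio of means fell from 3.97 to 2.68.

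The tetraspanins Cd53 and Cd37 organise receptors and integrins in the leukocyte membrane, and they behaved differently across the transferred hearts. Cd53 (chromosome 3, 106758861 to 106790149) had 13.7, 10.5, 14.1 and 12.2 CPM in control hearts and 21.8, 35.9 and 15.4 CPM in transferred hearts. Its transferred values spread 42.95% around their mean, and the lowest was 1.09 times the highest control. Cd37 (chromosome 7, 45233632 to 45239340) had 3.31, 3.66, 3.49 and 4.61 CPM in control hearts and 6.28, 5.93 and 7.07 CPM in transferred hearts. Its transferred values spread by 9.07%, the least of the 10 genes, and transferred heart 2, the highest heart for 8 of the genes, was the lowest transferred heart for Cd37. The log2 fold changes were 0.95 for Cd53 and 0.77 for Cd37, with standard errors of 0.25 and 0.18.

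The cytoskeletal group holds an actin regulator and a pair of GTPase regulators. Coro1a (chromosome 7, 126699774 to 126704816, minus strand) encodes coronin 1A, an actin-binding protein of haematopoietic cells. Its level was 9.34, 11.4, 11.9 and 12.9 CPM in control hearts and 22.2, 32.5 and 20.5 CPM in transferred hearts. It had the widest gap between groups after Cd52, the lowest transferred heart being 1.59 times the highest control. Its log2 fold change of 1.14 had a standard error of 0.18, and 1 of its 7 deposited values was fractional, as was 1 of 7 for Itgal.

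Arhgap30 (chromosome 1, 171388960 to 171410240) encodes a GTPase-activating protein that switches off small GTPases of the cytoskeleton. It had 11.5, 10.03, 9.64 and 11.9 CPM in control hearts and 17.4, 22.2 and 20.6 CPM in transferred hearts. Both groups were tight, with coefficients of variation of 10.1% and 12.1%. The log2 fold change was 0.90 (standard error 0.13), the smallest error of the 10 genes.

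Arhgdib (chromosome 6, 136923655 to 136941899) encodes LyGDI, a GDP-dissociation inhibitor of blood cells, which holds small GTPases inactive in the cytosol. Its level was 30.4, 33.4, 32.1 and 36.8 CPM in control hearts and 46.9, 63.2 and 32.5 CPM in transferred hearts. Transferred heart 3 lay inside the control range, so the groups overlapped. The log2 fold change of 0.52 (standard error 0.19) was the smallest of the 10 genes.

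Laptm5 (chromosome 4, 130912890 to 130936148) encodes a lysosomal membrane protein that promotes degradation of antigen receptors. It had 68.9, 72.1, 53.4 and 87.3 CPM in control hearts and 143, 127 and 71.5 CPM in transferred hearts. Transferred hearts 1 and 2 stood above all controls and transferred heart 3 did not. The log2 fold change was 0.70 (standard error 0.24.) At the Laptm5 locus the table lists an antisense gene, Gm38599, with 0 counts in every heart. No other listed gene overlaps any of the 10.

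**Figure D2:**
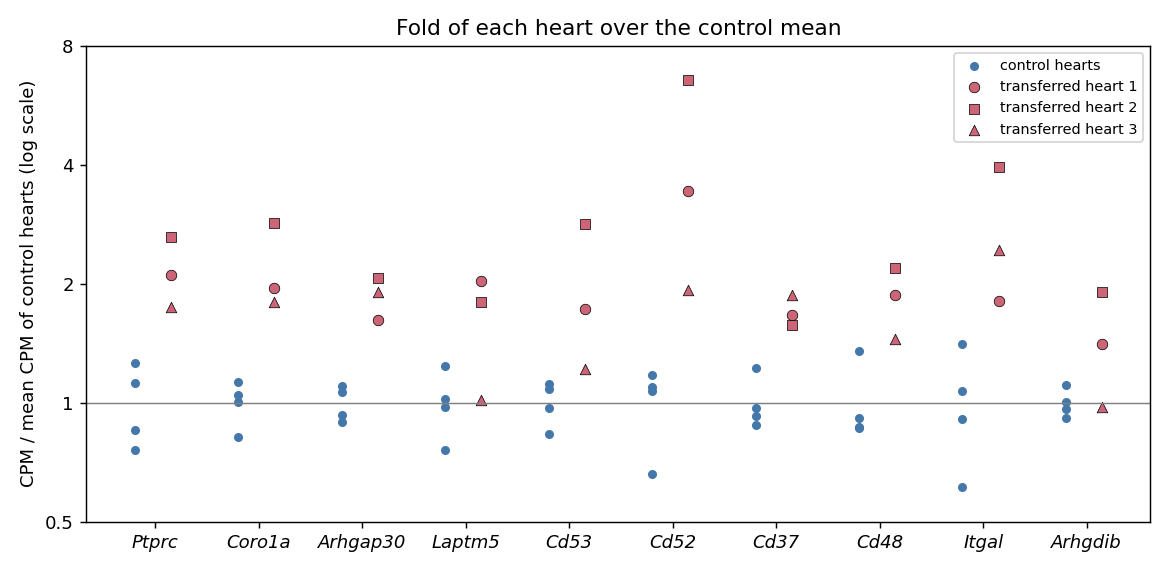
CPM of each heart divided by the mean of the control hearts, on a log axis, for control hearts (blue circles) and transferred hearts 1 to 3 (red circle, square and triangle). Transferred heart 2 reaches 6.55 for Cd52, while transferred heart 3 sits at 1.02 for Laptm5 and 0.978 for Arhgdib.

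The transferred hearts were not alike. Over the 10 genes the median fold over the control mean was 1.84 in transferred heart 1, 2.41 in transferred heart 2 and 1.77 in transferred heart 3. Transferred heart 2 was highest in 8 genes, and transferred heart 3 was the lowest transferred heart in 7. The summed CPM of the 10 genes was 156, 157, 143 and 185 in control hearts and 295, 339 and 200.1 in transferred hearts. The transferred mean of 278 ± 70.9 CPM (SD, n = 3) was 1.73 times the control mean of 160.3 ± 17.9 CPM (SD, n = 4). Laptm5 and Arhgdib made up 64.6% of the sum in control hearts. With these 2 genes left out, the sums were 1.85, 2.62 and 1.69 times the control mean in transferred hearts 1 to 3. The ratio of the full sum was 1.55 without transferred heart 2 and 1.98 without transferred heart 3.

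Both forms of animal identifier gave higher values after transfer. Between the 2 hearts with a letter prefix the summed CPM was 156 in the control and 295 in the transferred heart, a ratio of 1.90. All 10 genes were higher there, as were 49.0% of all tested genes. Among the 5 hearts with numbers alone the ratio was 1.66. There 10 genes were higher in the mean (49.3% of all tested genes) and 8 had no overlap (15.1% of all tested genes). The ratios of the single genes ran from 1.52 to 5.21 in the first kind and from 1.40 to 3.81 in the second. The first kind compares a single heart with a single heart.

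In the fit across all genes by the edgeR quasi-likelihood test, 18 of 7667 genes (0.235%) had a Benjamini-Hochberg adjusted p under the threshold of 0.05. The higher calls were 10, or 0.130%, and 2 of the 10 pan-leukocyte genes were among them, Coro1a and Arhgap30. Because these genes were picked with this contrast in view, nothing is read from that count. The count of 2 was 0 without control heart 1, 2, 3 or 4 or without transferred heart 2, and it was 7 without transferred heart 3, where 1.64% of all tested genes were called higher. With the form of the identifier as a term it was 0, so that both calls ended, and without the letter-prefix hearts it was also 0. With DESeq2 it was 8, where 2.48% of all tested genes were called higher, and with limma-voom 0. Scaling by total counts gave 3 of the 10 genes, with 0.339% of all tested genes called higher. Of its 35 calls 74.3% were higher, against 55.6% with TMM.

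Per length, the 10 genes spanned a wide range. In CPM per kb of combined exons, the control mean was 27.6 for Laptm5 and 20.2 for Arhgdib, and the ranges of these genes over the control hearts overlapped. Both lay apart from Coro1a at 5.28 and Cd53 at 4.51, which overlapped each other. Arhgap30 at 2.40, Cd48 at 2.37, Ptprc at 1.83 and Cd37 at 1.77 formed a run in which each gene overlapped the next. Cd52 at 1.17 and Itgal at 0.504 came last, each apart from the gene above it. In transferred hearts the mean of Cd52 was 4.65 CPM per kb, and its range of 2.26 to 7.67 then overlapped that of Cd37. The other neighbours in this order overlapped or lay apart as in control hearts.

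**Figure D3:**
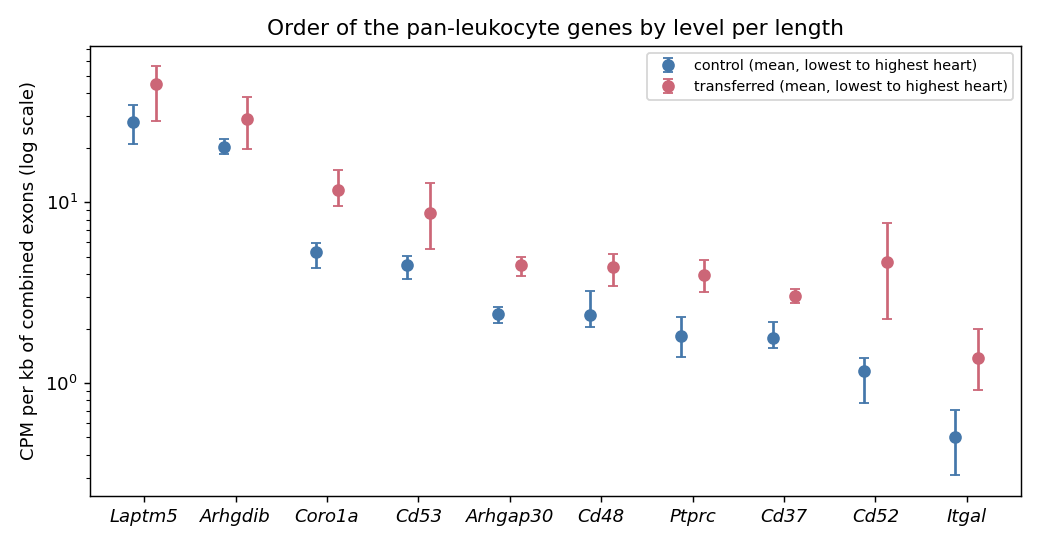
Mean CPM per kb of combined exon length on a log axis, with bars from the lowest to the highest heart, for 4 control hearts (blue) and 3 transferred hearts (red), in the order of the control means. Laptm5 and Arhgdib stand above the rest, and Cd52 moves furthest, from 1.17 to 4.65 CPM per kb.

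Relative to Ptprc in the same heart, the genes kept unequal proportions. The log2 ratio of Coro1a to Ptprc in CPM was 0.10 ± 0.41 (SD, n = 4) in control and 0.10 ± 0.12 (SD, n = 3) in transferred hearts. The ratio of Laptm5 to Ptprc went from 2.72 ± 0.19 (SD, n = 4) to 2.25 ± 0.37 (SD, n = 3) on the log2 scale, and that of Arhgdib from 1.65 ± 0.31 (SD, n = 4) to 1.0005 ± 0.19 (SD, n = 3). Cd52 moved the other way, from -4.19 ± 0.62 (SD, n = 4) to -3.47 ± 0.59 (SD, n = 3). The shifts of Arhgdib (-0.65), Laptm5 (-0.47) and Cd52 (0.73) each exceeded the SD of either group.

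Variation within the groups was described by pairs of genes. After each group was centred on its own mean, 35 of the 45 pairs of genes had a positive Pearson r of log2 CPM over the 7 hearts, with a median of 0.41 and a range from -0.63 to 0.94. That is 77.8% of the pairs, beside 49.9% positive and a median of -0.0015 over all pairs of tested genes. These points share libraries and scaling, so the values are descriptive. Cd37 stood apart, with a median r of -0.18 to the other 9 genes. Arhgdib, with the smallest fold change, had the highest median r, 0.65.

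RefSeq promoter windows (GRCm38.p6) were at hand for 8 of the 10 genes, matched by symbol and gene ID, and are given because the genes were higher together. The 250 bases before the most upstream start site of the RefSeq table were searched on both strands for GAGGAA, the core read by the myeloid ETS factor PU.1. It occurred in 4 of the 8 windows (Ptprc, Laptm5, Cd53 and Cd37), against 23.3% of the promoters of tested genes and 23.1% of all promoters in the table. The general ETS letters CGGAAG occurred in 1 of the 8 windows (23.1% of the promoters of tested genes), the RUNX letters TGTGGT in 3 (10.8%), TATAAA in 3 (6.96%) and CCAAT in 3 (34.6%). GAGGAA and CGGAAG both contain GGAA, with different letters before it, so they cannot mark the same GGAA. For Ptprc, Cd37, Laptm5 and Cd48 that start lies inside the gene's span as the deposited table gives it. The windows of Ptprc, Laptm5 and Cd37, which hold 3 of the 4 matches of GAGGAA by gene, overlap annotated exons of the same gene. Such matches are descriptions of the letters, not of binding. The windows of Cd53 (chr3:106790150-106790399, minus strand), Coro1a (chr7:126704817-126705066, minus strand) and Arhgdib (chr6:136941900-136942149, minus strand) overlap no annotated GENCODE exon and are shown to set a window with GAGGAA beside windows without it. Each runs 5′ to 3′ on the gene's strand and ends at the base before the start site. Capitals mark GAGGAA, which in Cd53 begins 39 bases before the start site.
Cd53: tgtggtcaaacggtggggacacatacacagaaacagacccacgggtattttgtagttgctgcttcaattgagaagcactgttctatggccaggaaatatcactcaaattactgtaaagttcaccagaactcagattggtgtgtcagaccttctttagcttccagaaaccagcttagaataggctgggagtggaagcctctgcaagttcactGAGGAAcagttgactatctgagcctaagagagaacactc
Coro1a: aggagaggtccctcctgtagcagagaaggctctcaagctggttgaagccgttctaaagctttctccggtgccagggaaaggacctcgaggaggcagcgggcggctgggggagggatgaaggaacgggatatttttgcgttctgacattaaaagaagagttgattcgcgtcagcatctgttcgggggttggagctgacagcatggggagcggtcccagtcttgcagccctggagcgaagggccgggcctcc
Arhgdib: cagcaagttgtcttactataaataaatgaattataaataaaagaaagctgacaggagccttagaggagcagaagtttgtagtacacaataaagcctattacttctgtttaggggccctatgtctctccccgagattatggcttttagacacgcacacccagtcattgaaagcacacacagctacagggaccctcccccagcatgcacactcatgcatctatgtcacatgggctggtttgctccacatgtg

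A further 84 leukocyte genes were listed from general knowledge of signalling, adhesion and cytoskeletal genes of white blood cells, of which 43 were in the table and 40 were tested. This list too was drawn up with earlier results of these hearts known, so its counts are descriptive and not independent evidence. None of the 40 passed the edgeR threshold adjusted over all genes. At an unadjusted p under 0.05, 31 were higher and 0 lower, against 7.17% and 5.27% of all tested genes. The fitted log2 fold change was above 0 in 38 of the 40, against 49.7% of all tested genes, and its median was 0.76. DESeq2 called 19 of them, where 2.48% of all tested genes were called higher, and limma-voom 0, with 30 at an unadjusted p under 0.05. The count of 0 was 14 without transferred heart 3, where 1.64% of all tested genes were called higher, and 1 without transferred heart 1.

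Among these genes, 5 of the 6 with the smallest p-values are given here, most of them genes of myeloid signalling. Fcer1g, the common gamma chain of Fc receptors, had 15.98 CPM in control and 30.3 CPM in transferred hearts (log2 fold change 0.93, edgeR adjusted p = 0.0515). Lat2, an adaptor of immunoreceptor signalling, had a log2 fold change of 1.47. For Itgam, the integrin chain CD11b, the log2 fold change was 1.13, and for Ncf1, a cytosolic subunit of the phagocyte NADPH oxidase, it was 0.89. Spi1, which encodes PU.1, had 9.61 CPM in control and 18.7 CPM in transferred hearts, a log2 fold change of 0.96. In all 5 the groups did not overlap. The 2 of the 40 genes fitted lower were Arhgap25 (log2 fold change -0.02) and Ptpn22 (-0.42).

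**Figure D4:**
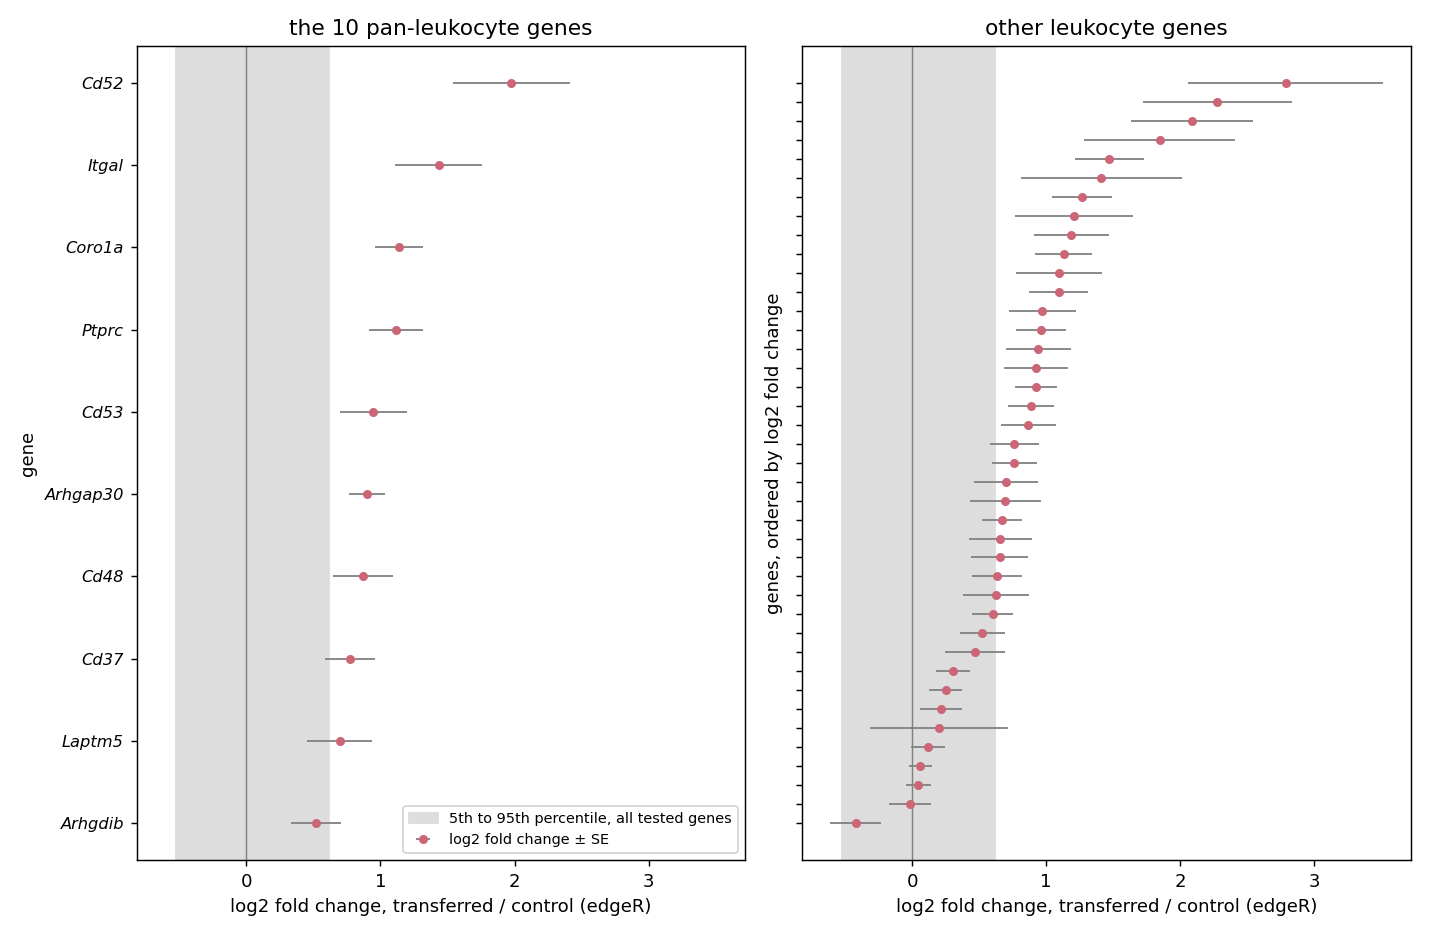
Log2 fold change with standard error (edgeR, transferred over control) of the 10 pan-leukocyte genes (left) and of the 40 other tested leukocyte genes (right, ordered by fold change and not named), with the 5th to 95th percentile of all tested genes in grey, from -0.53 to 0.62. All 10 genes on the left lie above 0, as do 38 of the 40 on the right.

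Markers of single leukocyte types are given beside these sums, and their part in them was not tested. Of 22 macrophage and monocyte genes listed by the table, 20 were tested, and all 20 were fitted higher (49.7% of all tested genes) with a median log2 fold change of 1.08. All 20 were higher at an unadjusted p under 0.05 by edgeR (7.17% of all tested genes), and 17 had no overlap (5.99%). C1qb, a chain of complement C1q, and Mrc1, the mannose receptor, passed the edgeR threshold in the higher direction, as did 0.130% of all tested genes (adjusted p = 0.0384 for both), with log2 fold changes of 0.98 and 0.77. Plac8 followed, with 0.773 CPM in control and 6.93 CPM in transferred hearts (log2 fold change 3.15, edgeR adjusted p = 0.0546). The summed level of the list was 547 to 811 CPM in control hearts and 968 to 1482 CPM in transferred hearts. In transferred hearts 1 to 3 the sum was 2.04, 2.24 and 1.47 times the control mean, the same order of hearts as for the pan-leukocyte sum.

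The neutrophil list, of which 9 genes were tested and 0 passed the edgeR threshold, was highest in 1 heart. At an unadjusted p under 0.05, 8 were higher, against 7.17% of all tested genes. All 9 were fitted higher (49.7% of all tested genes), and in 4 of them the groups did not overlap (5.99%). Its sum ran from 20.7 to 47.9 CPM in control hearts and was 32.7, 344 and 63.5 CPM in transferred hearts 1 to 3. Cd177 and Cxcr2, among its 3 genes with the smallest p, had log2 fold changes of 1.93 and 3.77, and Cxcr2 had 22, 349 and 37 counts in the transferred hearts. Transferred heart 2, which holds this excess, was also the highest heart for 8 of the 10 pan-leukocyte genes. Without it those 10 genes had a median log2 fold change of 0.83, and 0 of them passed the edgeR threshold. The 8 genes with separate groups had to stay separate when a heart was left out, so nothing is read from that. Without that heart 8.62% of all tested genes had separate groups in the higher direction. The part of neutrophil RNA in the values of transferred heart 2 was not tested.

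Many lymphocyte markers were near the floor. Pax5, Fcmr, Ncr1 and Klrb1c had 0 counts in all 7 hearts, and Cd79a had at most 2. Of the T cell genes, Cd8b1 had 1 count in all, Cd8a at most 4, Zap70 at most 3, Lck at most 10 and Lat at most 17. The table counts reads on mouse genes, and whether human T cell reads fell on the mouse pan-leukocyte genes was not tested. The summed T cell list overlapped, with 32.1 to 39.98 CPM in control and 29.8 to 37.9 CPM in transferred hearts. Most of it came from Cd28, with 432 to 730 counts per heart and a log2 fold change of -0.13. Cd247 and Cd4 had log2 fold changes of -1.06 and 0.35, and 0 of the 4 tested T cell genes passed the edgeR threshold. At an unadjusted p under 0.05, 1 of the 4 was lower and 0 higher, against 5.27% and 7.17% of all tested genes. The natural killer list reached at most 3.5 counts in a heart. The summed B cell list was 1.77 to 2.80 CPM in control hearts and 12.3, 8.33 and 4.30 CPM in transferred hearts 1 to 3, above every control heart in each. It had 1 tested gene, Cd72, with 2.04 CPM in control and 7.77 CPM in transferred hearts (log2 fold change 1.92, edgeR adjusted p = 0.0572).

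The edgeR test called 0 of 5 dendritic cell genes, 0 of 4 mast cell and basophil genes, 0 of 8 erythroid and platelet genes, 0 of 9 fibroblast and mural genes, 0 of 12 cardiomyocyte genes and 0 of 10 proliferation genes. At an unadjusted p under 0.05, 2 dendritic cell, 1 mast cell and 3 erythroid genes were higher, against 7.17% of all tested genes. At the same limit 1 dendritic cell and 2 mast cell genes were lower, against 5.27%, and 0 genes of the last 3 lists reached it in either direction. In the order of the lists, the median log2 fold changes were 0.10, -0.44, 0.78, -0.12, -0.01 and -0.39. Of 11 endothelial genes, 2 passed the edgeR threshold in the lower direction, where 0.104% of all tested genes did. They were the water channel Aqp1 (log2 fold change -1.01) and the apelin receptor Aplnr (-0.91). The list median was 0.00089, with 6 of the 11 fitted higher (49.7% of all tested genes) and 5 lower. At an unadjusted p under 0.05, 2 endothelial genes were higher and 3 lower, against 7.17% and 5.27% of all tested genes. Blood content, read from the beta-globin genes Hbb-bs and Hbb-bt, was 3982, 6492, 14678.5 and 4082 CPM in control hearts and 13106, 2736 and 3250 CPM in transferred hearts. Control heart 3 and transferred heart 1 had the most globin, and their pan-leukocyte sums were 143 and 295 CPM. The part of blood content in these sums was not tested.

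**Figure D5:**
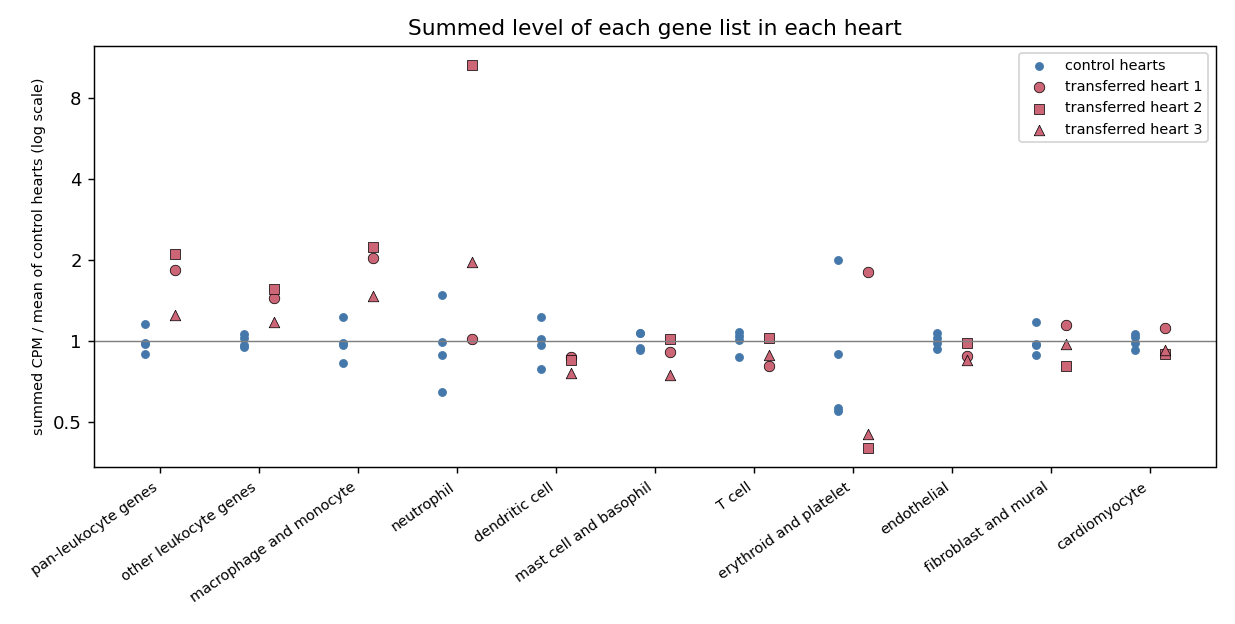
Summed CPM of each gene list divided by the mean of the control hearts, on a log axis, for control hearts (blue) and transferred hearts 1 to 3 (red circle, square and triangle). Pan-leukocyte and macrophage sums lie above every control heart in all 3 transferred hearts, whereas the neutrophil sum reaches 10.7 in transferred heart 2 and 1.01 in transferred heart 1.

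The genes outside the list whose log2 CPM followed it most closely over the 7 hearts were ranked by Pearson r with the mean standardised level of the 10 genes. The closest was Alox5ap, the 5-lipoxygenase activating protein needed for leukotriene synthesis, with r = 0.996 and a log2 fold change of 0.91. It had 16.01 ± 0.686 CPM (SD, n = 4) in control and 30.1 ± 7.22 CPM (SD, n = 3) in transferred hearts. Next came Pira2 (0.991), P2ry6 (0.986), Gm14548 (0.986), Fxyd5 (0.983), Bst1 (0.983), Tlr1 (0.981) and Cd84 (0.978). Cd84 is also among the 40 other leukocyte genes. Pira2 and Gm14548 are near-identical paired immunoglobulin-like receptor genes whose reads may be divided between copies, so which of them is meant is uncertain. After centring within groups, r was 0.973 for Alox5ap and between 0.878 and 0.955 for the other 7. Since the 7 points fall into 2 groups and share libraries, r describes likeness of pattern in these hearts.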

How the data were processed

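The deposited table gave estimated counts per gene over combined exons for 7 hearts, 1 column each, which the authors had not normalized. Per the submitters' processing notes, the tools named were bcl2fastq 2.20.0.422, cutadapt 2.5, STAR 2.7.2b, featureCounts 1.6.4 and DESeq2 1.22.2 with build GRCm38.p6, and their settings are not given in the sources used here. Fractional parts, present in 4.63% of the values, were rounded away before testing. Of the table, 20343 complete rows were used and 1 unfinished row was left out. Genes beyond the start of chromosome 8 are not analysed here.

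Genes were filtered with filterByExpr and tested with the quasi-likelihood test of edgeR 4.0.16 (R 4.3.3, TMM, robust, Benjamini-Hochberg over all genes, threshold 0.05). The biological coefficient of variation was 0.164. Standard errors come from the F statistic, and log2 CPM used a prior count of 2. Floors and Poisson intervals describe counting error and nothing else, because no molecular identifiers are named and PCR copies may be counted. Replicates were numbered in accession order within the treatment named by the labels. The labels do not say more on how the animals relate, so p-values measure the spread between these samples. No 2 libraries of a group were alike within sampling noise (chi-square per degree of freedom from 17.4 to 77.2). The procedure was tested on simulated counts.

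The 10 genes and all gene lists were chosen with earlier results of these data known. Genes named in the text are the 10 genes, listed genes past the threshold, the 6 other leukocyte genes with the smallest p, the 3 with the smallest p of the T cell, macrophage and neutrophil lists, defining lymphocyte markers, and the 8 genes of at least 1 CPM closest in pattern. A few genes that this rule names are not reported here. Arhgap25, Ptpn22, Cd72, the beta-globin genes and the genes in the closing section were named after their values were seen. Alternatives were other scalings and filters, DESeq2 1.42.0, limma-voom (limma 3.58.1), no robust estimation, the identifier prefix, and left-out hearts.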

Additional observations from a re-analysis of the deposited data

Results flagged for a closer look

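Each of 11 results (the 10 genes and their sum) was checked for a control heart far from the other 3, the genes on the log2 CPM scale (prior count of 2) and the sum in CPM, and chance marks about 1 in 20 such groups. Cd52 was marked, with a gap of 0.836 of the control range in log2 CPM. In CPM the gap was 0.801 of the range, which would not have been marked. Control heart 1 had 8 counts, or 0.389 CPM, against 0.631 to 0.691 CPM in the others. Its exact 95% Poisson interval, 0.168 to 0.767 CPM, covered the other control values. Cd48 was marked with a gap of 0.864 of the range in log2 CPM, and the gap was 0.888 in CPM. Control heart 3 had 5.49 CPM against 3.50 to 3.72 CPM in the others, and its exact 95% Poisson interval began at 4.63 CPM.

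Of 44 listed genes in the table that were under the filter on low counts, 10 had no counts. In 3 the lowest transferred heart lay above the highest control heart. Among all tested genes 5.99% showed such separation. No share over all genes under the filter is given here, and nothing is read from the 3. Marco, a macrophage scavenger receptor, had 21 counts summed over control hearts and 57 over transferred hearts. Traf3ip3 had 15 and 34 counts, and the T cell gene Cd2 had 2 and 12 counts. These differences were not tested.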

How the results depend on the processing

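All 10 genes kept their direction in all 17 alternatives, and the log2 fold change ran at its lowest to 0.26 for Arhgdib and to 0.50 for Laptm5. The median log2 fold change stayed between 0.83 and 1.10 when 1 heart was left out, and the ratio of summed CPM between 1.55 and 1.98. Calls depended more on the fit. Of all genes, 18 of 7667 were called, against 35 with total counts and 250 with DESeq2. With every gene of at least 1 count it was 81 of 12132, of which 66 were higher. It was 0 each with limma-voom, with the identifier prefix as a term and without the letter-prefix hearts. At an unadjusted p under 0.05 these last 3 fits gave 907, 973 and 1054 genes. Leaving out 1 heart gave 0 to 140. Of the 10 pan-leukocyte genes, 2 were called. The count was 5 with every gene of at least 1 count, where 66 of 12132 genes were called higher. With DESeq2 it was 8, where 2.48% of all tested genes were called higher. It was 0 with limma-voom, with the identifier prefix and without the letter-prefix hearts (10, 10 and 8 at an unadjusted p under 0.05). With 1 heart left out it was 0 to 7. Of the 40 other leukocyte genes, 0 were called, against 1 with RLE scaling, 2 with total counts and 19 with DESeq2. With every gene of at least 1 count, 43 of these genes were tested and 9 called. With 1 heart left out, 0 to 14 were called, and 41 were tested without transferred heart 2. For these counts the cause was not tested. With 3 and 4 hearts a group, Cd52 at 8 to 82 counts is the gene most limited by depth.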

Other observations

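After each group was centred on its own mean, the tested genes outside the list whose log2 CPM followed the mean standardised level of the 10 pan-leukocyte genes most closely over the 7 hearts were others than before centring. Among the 8 closest were Mcm7 (r = 0.989), Tacc3 (0.985), Spc25 (0.985), Nr5a2 (0.983), Tent5b (0.981), Ptma (0.981) and Prkcb (0.977). Mcm7, a subunit of the replicative helicase, and Tacc3 and Spc25, proteins of the mitotic spindle and kinetochore, are known from dividing cells. Without centring, Tacc3, Spc25 and Nr5a2 had r from -0.20 to 0.035, and their log2 fold changes ran from -0.69 to -0.13. For Mcm7, Tent5b, Ptma and Prkcb, r without centring ran from 0.83 to 0.93, and the log2 fold changes from 0.19 to 1.26. These 7 genes were ranked after the values were seen, over few hearts that share libraries, and are given with no test.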
